A study of Arabidopsis thaliana with 8 samples.

Results

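Sulfur starvation and sulfate assimilation genes were compared between *ubp5* and wild-type Col-0 seedlings of *Arabidopsis thaliana*. The 10 genes were listed by identifier, with earlier results of these data known. They are *SDI1*, *SDI2*, *LSU1*, *LSU2* and *BGLU28*, which are known as markers of sulfur deficiency, *APR1*, *APR2* and *APR3*, which reduce activated sulfate, and *SULTR1;1* and *SULTR1;2*, which take sulfate up. All 10 were found among the 37336 genes listed in each library, and 6 of them were among the 15649 genes with enough counts for the test (*SDI2*, *LSU2*, *APR1*, *APR2*, *APR3* and *SULTR1;2*).

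RNA was taken from whole seedlings 12 days after germination (DAG), with 4 biological replicates each of Col-0 and of *ubp5*, and sequenced from the 3' end of polyadenylated transcripts. Both genotypes share the Col-0 background and were grown on MS agar plates in long days, and the labels give no sulfur treatment, so the comparison is of genotypes on one medium. The *ubp5* seedlings carry a deletion in *UBP5*, a ubiquitin-specific protease, made with CRISPR/Cas9 and studied here as 1 line. The Col-0 libraries held 2572842 to 2997743 counts and the mutant ones 1440510 to 2595285, a lower depth on the whole. The level of *UBP5* itself was 17.2 ± 4.28 CPM (the count scaled to the library's total; SD, n = 4) in the wild type and 5.84 ± 1.52 CPM in the mutant, a log2 fold change of -1.53 ± 0.25 (SE; adjusted p = 0.00236, edgeR). Col-0 replicate 1 stood apart from the other Col-0 libraries. Its counts differed from theirs by a chi-square per degree of freedom of 8.67 to 9.05, against 4.07 to 5.69 among those libraries.

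Plants take sulfate up through root transporters, activate it with ATP sulfurylase to adenosine 5'-phosphosulfate (APS), and reduce APS to sulfite and then sulfide, which enters cysteine. When sulfate runs short, uptake and APS reduction are known to be increased, sulfur-rich glucosinolates are broken down, and their synthesis is held back. Much of this response depends on the transcription factor SLIM1 (EIL3), and one of its outputs is the microRNA miR395, which targets transcripts of ATP sulfurylases and of the transporter SULTR2;1.

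The mature miR395 sequences of the 6 RefSeq loci (TAIR10.1) are of the 2 kinds printed here, because target sites for them lie in *ATPS3* and *ATPS4*, which differed between the genotypes (below). Capitals mark the seed, bases 2 to 8, which all 6 loci share. The first kind is that of *MIR395a* (chr1:9363206-9363226, minus strand), *MIR395d* and *MIR395e*, and the second that of *MIR395b* (chr1:9364540-9364560, plus strand), *MIR395c* and *MIR395f*.
miR395a: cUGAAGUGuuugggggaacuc
miR395b: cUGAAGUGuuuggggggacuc
Transcripts of 70 genes (the 10 genes, the pathway lists below and organ markers) were searched for sites with at most 4 mismatches to these sequences. Sites were found in *ATPS1*, *ATPS3*, *ATPS4* and *SULTR2;1*, in the coding part of each, and in none of the 10 genes. Capitals mark the letters that are not complementary to miR395a.
ATPS1 (chr3:8113164-8113184, plus strand): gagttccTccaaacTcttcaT
ATPS3 (chr4:8414958-8414978, minus strand): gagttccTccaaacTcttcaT
ATPS4 (chr5:17591121-17591141, minus strand): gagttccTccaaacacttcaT
SULTR2;1 (chr5:3193268-3193288, plus strand): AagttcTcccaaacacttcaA
*ATPS4* had 2 mismatches of 21 positions, and the others had 3. The *MIR395* loci themselves were not analysed here, and the part of miR395 in the values of these genes was not tested.

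None of the 10 genes passed the thresholds of the study, which require both that the adjusted p is under 0.05 and that the log2 fold change reaches 1 or -1. With edgeR's quasi-likelihood test the calls were 0 of 6 upward and 0 of 6 downward, where they made up 1.91% and 2.93% of the 15649 tested genes, or 4.84% together. DESeq2 also called 0. Without the filter on low counts, which let in the remaining 4 genes, edgeR called 0 of 10, against 1.82% of 24406 genes upward and 2.72% downward, or 4.55% together. At an unadjusted p under 0.05, the filtered edgeR fit gave 1 of 6, *SDI2*, on the higher side, where 11.7% of all tested genes were higher and 13.9% lower. The fit without the filter gave 3 of 10, *SDI2* and *SULTR1;1* higher and *APR3* lower, where 9.43% and 12.2% of 24406 genes were. With only the fold threshold dropped from the filtered fit the count was 0, where 4.59% of all tested genes were higher and 6.34% lower. The log2 fold changes of the 6 genes lay between -0.50 and 0.64 with a median of 0.24, and the median of all tested genes was -0.01. Of the 6, 4 were above 0 and 2 below, against 48.4% and 51.6% of all tested genes. In CPM the genotypes overlapped for each of the 6, while 7.9% of all tested genes were higher and 9.34% lower in every *ubp5* library than in any Col-0 library.

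**Figure D1:**
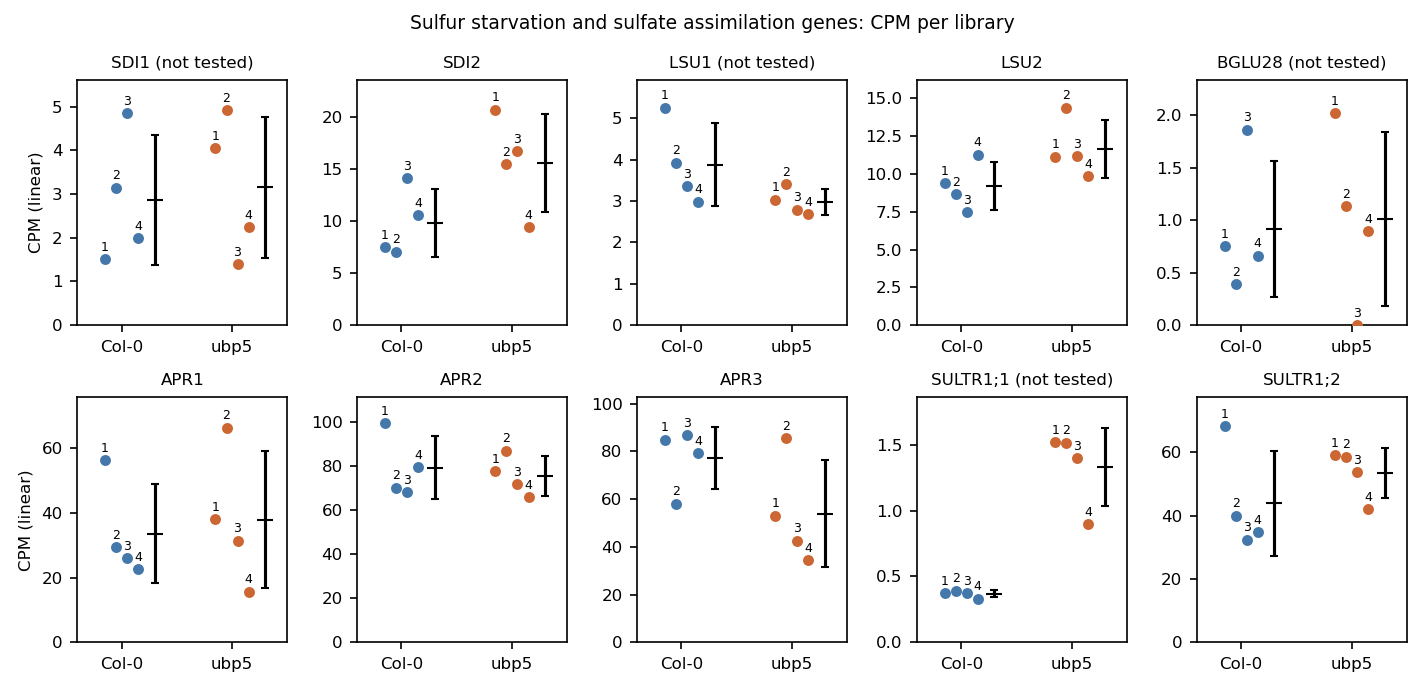
CPM of the 10 genes in each library (vertical axis, linear from 0, a separate scale for each gene), with the replicate number beside each point and the mean ± SD of 4 libraries as a bar. The groups overlap for every gene but *SULTR1;1*, whose points rest on 1 to 4 counts each. *APR1* shows Col-0 replicate 1 at 56.3 CPM and *ubp5* replicate 2 at 66.2 CPM above the other libraries of their genotype.

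*SDI1* and *SDI2* encode tetratricopeptide repeat proteins that rise under sulfur deficiency and repress glucosinolate synthesis through the factor MYB28. *SDI2* (AT1G04770, chr1:1336274-1337849) was at 7.51, 7.07, 14.2 and 10.6 CPM in Col-0 replicates 1 to 4 and at 20.7, 15.5, 16.8 and 9.42 CPM in *ubp5* replicates 1 to 4, from 18 to 41 counts a library. In *ubp5*, replicates 1, 2 and 3 were above the highest Col-0 value, and replicate 4 lay among the Col-0 values. Its log2 fold change was 0.64 ± 0.28 (SE; 95% interval 0.04 to 1.24) with an adjusted p of 0.164 in edgeR, and between 0.150 and 0.255 under 8 ways of processing the same 8 libraries. *SDI1* (AT5G48850, chr5:19805437-19807853) had 4, 8, 13 and 6 counts in Col-0 and 8, 13, 2 and 5 in *ubp5*, and was too low for the test. Both genotypes covered the same range, 2.87 ± 1.49 and 3.15 ± 1.62 CPM, and the ratio of the summed rates was 1.19 with a 95% counting interval of 0.688 to 2.05. Such intervals cover counting error only and leave out the spread between seedlings.

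*LSU1* and *LSU2*, RESPONSE TO LOW SULFUR genes, encode small coiled-coil proteins. *LSU2* (AT5G24660, chr5:8443279-8444101) was at 9.39, 8.64, 7.45 and 11.3 CPM in Col-0 and at 11.1, 14.4, 11.2 and 9.86 CPM in *ubp5*. The genotypes overlapped, with *ubp5* replicate 2 the highest library and Col-0 replicate 4 above 3 of the *ubp5* libraries. The log2 fold change was 0.34 ± 0.21 (SE; 95% interval -0.11 to 0.80; adjusted p = 0.339, edgeR), an interval that leaves out a doubling. *LSU1* (AT3G49580, chr3:18374908-18375940) had 14, 10, 9 and 9 counts in Col-0 and 6, 9, 4 and 6 in *ubp5* and was not tested. Its levels were 3.88 ± 0.997 and 2.98 ± 0.318 CPM, with *ubp5* replicates 1 and 2 inside the Col-0 range, and an exact permutation test on log2(CPM + 1) gave a two-sided p of 0.143. The estimates for *LSU1* and *LSU2* thus differed in sign, and neither passed its test. *LSU3*, which lies beside *LSU1*, had 5, 6, 7 and 7 counts in Col-0 and 8, 13, 5 and 4 in *ubp5*. *LSU4*, which lies beside *LSU2*, had 11, 6, 7 and 13 counts in Col-0 and 4, 3, 3 and 5 in *ubp5*. In CPM the 4 *ubp5* values of *LSU4* were all below those of Col-0, as they were for 7.58% of the 24406 genes with any count. Without the filter on low counts its adjusted p was 0.263 (edgeR).

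*BGLU28* (AT2G44460, chr2:18346306-18350026) encodes a beta-glucosidase that releases sulfur from glucosinolates under deficiency. It had 2, 1, 5 and 2 counts in Col-0 and 4, 3, 0 and 2 in *ubp5*. With 10 counts in all in Col-0 and 9 in *ubp5*, the rate ratio was 1.19 with a counting interval of 0.426 to 3.25. The interval is wide at this depth, and it leaves out the spread between seedlings. *BGLU30*, which encodes the related enzyme and is also induced by darkness, was measured at 7.51, 0, 5.96 and 7.62 CPM in Col-0 and at 9.10, 31.4, 1.40 and 9.42 CPM in *ubp5*. A single library, *ubp5* replicate 2, carried the high mean of the mutant. The log2 fold change was 1.36 ± 0.69 (SE; adjusted p = 0.235, edgeR), and 0.40 without that library.

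The short sequence upstream of *SDI1* is shown because that gene is a standard marker of the response and its window held the core of the sulfur-responsive element, GAGAC, more than once. The 300 bases before its annotated start (RefSeq, TAIR10.1, chr5:19807854-19808153, minus strand) read as follows, with capitals on GTCTC, which is GAGAC on the other strand.
SDI1: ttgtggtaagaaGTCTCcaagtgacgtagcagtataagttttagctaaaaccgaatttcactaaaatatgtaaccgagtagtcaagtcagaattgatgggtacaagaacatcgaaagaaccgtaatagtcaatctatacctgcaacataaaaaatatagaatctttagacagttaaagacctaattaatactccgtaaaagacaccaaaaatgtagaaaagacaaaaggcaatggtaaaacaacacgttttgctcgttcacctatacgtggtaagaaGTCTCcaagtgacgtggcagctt
Among the upstream windows of the 10 genes, GAGAC on either strand was found for *SDI1* and *BGLU28*, and it was found in 30% of the 27443 windows of the annotation. The other motifs searched on both strands were the G-box CACGTG (0 of the 10 genes, 7.09% of all windows), the stretch TGAATCT of the SLIM1-bound UPE-box (0 of 10, 6.99%), the telobox AAACCCT (*BGLU28* only, 8.51%) and the GAGA stretch GAGAGAG (0 of 10, 8.95%). GAGAC shares the letters GAGA with the GAGA stretch. A match describes the letters of the window only.

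APS reductases carry out a main control step of the pathway, known to respond strongly to sulfur supply. *APR1* (AT4G04610, chr4:2324878-2327064) was at 56.3, 29.5, 26.1 and 22.5 CPM in Col-0 and at 37.9, 66.2, 31.4 and 15.7 CPM in *ubp5*. The spread within each genotype was several times the difference of the means, 33.6 ± 15.4 and 37.8 ± 21.1 CPM, and both the lowest and the highest library were *ubp5*. Its log2 fold change of 0.20 ± 0.37 (SE; 95% interval -0.61 to 1.00; adjusted p = 0.791, edgeR) turned to -0.26 without *ubp5* replicate 2 and became 0.58 without Col-0 replicate 1, neither past the test. *APR2* (AT1G62180, chr1:22975530-22977885), whose product gives most of the activity in leaves, was at 99.5, 70.3, 68.2 and 79.5 CPM in Col-0 and at 77.9, 87.1, 71.9 and 65.9 CPM in *ubp5*. These values overlapped throughout and gave the narrowest interval of the 6 tested genes, a log2 fold change of -0.07 ± 0.14 (SE) between -0.37 and 0.24 (adjusted p = 0.815, edgeR).

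*APR3* (AT4G21990, chr4:11657008-11659167) gave the most negative fold change of the 6. It was at 84.9, 58.1, 86.8 and 79.2 CPM in Col-0 and at 53.1, 85.5, 42.6 and 34.5 CPM in *ubp5*. Of the mutant libraries, replicates 1, 3 and 4 were below every Col-0 library, and replicate 2 was at the level of the highest. Over all 8 libraries the log2 fold change was -0.50 ± 0.23 (SE; 95% interval -1.01 to 0.01; adjusted p = 0.200, edgeR). Without *ubp5* replicate 2 it was -0.83 with an adjusted p of 0.0182, and leaving out each of the other 7 libraries in turn kept the adjusted p between 0.135 and 0.427. When *ubp5* replicate 2 and Col-0 replicate 1 were both left out, a choice made after their values were seen, it was -0.79 with an adjusted p of 0.0144. None of these fits passed the fold threshold. The 3 *APR* genes thus had estimates of both signs, and no difference between one *APR* gene and another was tested. Each has an annotated gene on the opposite strand that overlaps it, and the counts were made from the sense strand.

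*SULTR1;1* and *SULTR1;2* encode the high-affinity transporters of the root epidermis and cortex, of which *SULTR1;2* is the main one when sulfate is ample. *SULTR1;2* (AT1G78000, chr1:29327515-29333220) was at 68.3, 40.1, 32.4 and 34.8 CPM in Col-0 and at 59.2, 58.7, 53.7 and 42.1 CPM in *ubp5*. All 4 mutant libraries were above Col-0 replicates 2, 3 and 4 and below Col-0 replicate 1. The log2 fold change was 0.28 ± 0.22 (SE; 95% interval -0.19 to 0.75; adjusted p = 0.453, edgeR). Without Col-0 replicate 1 it was 0.58 with an adjusted p of 0.0194, and the other 7 libraries left out in turn kept the adjusted p between 0.359 and 0.702. Without Col-0 replicate 1 and *ubp5* replicate 2 it was 0.53 with an adjusted p of 0.0523.

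*SULTR1;1* (AT4G08620, chr4:5500313-5506313) was close to undetected, with 1 count in each Col-0 library and 3, 4, 2 and 2 counts in *ubp5*. The *ubp5* values were all higher in CPM, at 0.897 to 1.52 against 0.331 to 0.393. A single count makes a larger CPM in a shallower library, and the mutant libraries were shallower on the whole. No overlap with *ubp5* higher was found for 6.32% of the 24406 genes with a count. Summed over libraries, 4 counts in Col-0 and 11 in *ubp5* gave a rate ratio of 3.62 with a 95% counting interval of 1.07 to 15.6. The exact permutation test gave a two-sided p of 0.0286, the smallest that 4 against 4 libraries allow, unadjusted. Any gene without overlap gets this p, so it adds nothing to the lack of overlap itself. In the fit without the filter its adjusted p was 0.155 (edgeR, 24406 genes). A floor of 3 counts was set for detection, and all Col-0 libraries and 2 of the *ubp5* libraries were under it. For each of the 10 genes the last 500 bases of the transcript were cut into 461 overlapping stretches of 40 bases, and 0 of them had an exact second copy in the genome. Of these stretches, 19 of *SULTR1;1* and 10 of *SULTR1;2* cross a splice junction and could not be placed, and copies with mismatches were not searched for.

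Both transporters are root genes, and seedlings were taken whole. In such samples fewer cells of a type and less RNA per cell cannot be told apart. The summed CPM of 6 root hair markers was 33.0 to 57.8 in Col-0 and 28.8 to 43.0 in *ubp5*. That of 5 endodermis markers was 31.7 to 62.1 and 36.0 to 47.5. By edgeR 0 of the 7 tested root markers were called, against 4.84% of all tested genes. Log2 fold changes were negative for 4 of 4 tested root hair markers and for 2 of 3 tested endodermis markers, against 51.6% of all tested genes. The 7 leaf mesophyll markers summed to 26521 to 34369 CPM in Col-0 and 20245 to 22387 CPM in *ubp5*, without overlap. All 7 log2 fold changes were negative, as were 51.6% over all tested genes. By edgeR 4 of the 7 had an adjusted p under 0.05, against 6.34% of all tested genes on the lower side, and 1, *LHCB2.1*, passed the fold threshold as well, against 2.93%. The part of these differences in the values of the sulfur genes was not tested.

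**Figure D2:**
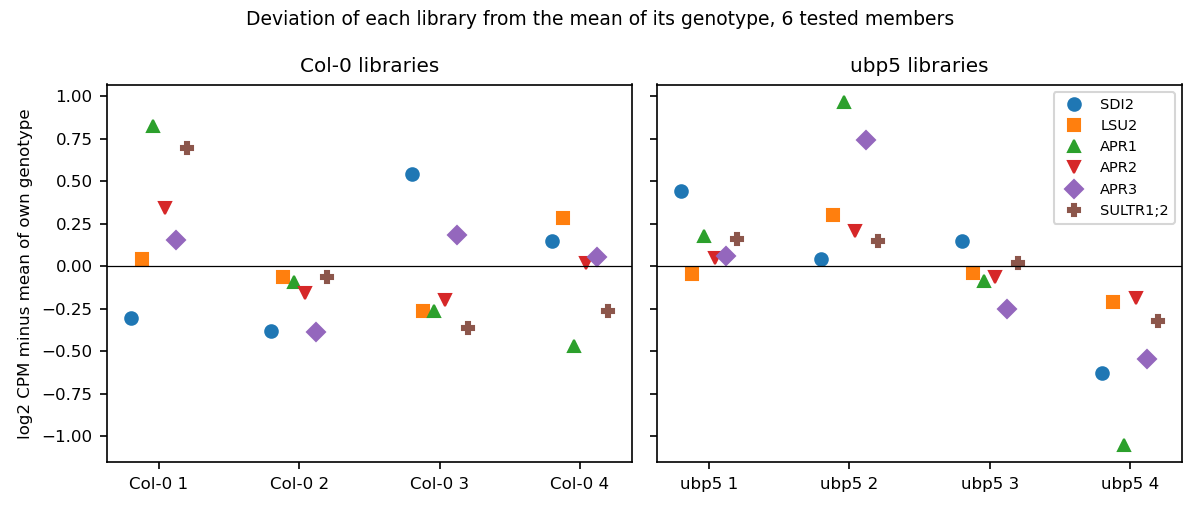
Deviation of each library from the mean of its own genotype (vertical axis, log2 CPM) for the 6 tested genes, with Col-0 on the left and *ubp5* on the right. *ubp5* replicate 4 lies below 0 for all 6 genes and *ubp5* replicate 2 above 0 for all 6. In Col-0 replicate 1 *APR1* and *SULTR1;2* reach 0.82 and 0.69.

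Within a genotype, several of the 6 tested genes were high or low in the same libraries. *ubp5* replicate 4 was the lowest mutant library for 6 of 6 genes, and it was the lowest for 24.4% of all tested genes. *ubp5* replicate 2 was the highest mutant library for 4 of 6, against 26.2% of all tested genes, and Col-0 replicate 1 was the highest Col-0 library for 3 of 6, against 28.9%. Among 32 tested genes of the pathway lists below, *ubp5* replicate 2 was highest for 19 and Col-0 replicate 1 for 17, each within its genotype. For 9 of those 32, *ubp5* replicate 4 was the lowest mutant library. Of the 6 genes, *APR1* carried the largest deviations, 0.82 in Col-0 replicate 1, 0.97 in *ubp5* replicate 2 and -1.05 in *ubp5* replicate 4, on the log2 scale. After removal of the genotype means, 13 of the 15 pairs of genes had a positive correlation over the 8 libraries (Pearson's r from -0.14 to 0.87, median 0.51). Over all pairs of the 15649 tested genes 49.9% were positive. It was 0.87 for *APR2* with *SULTR1;2*, 0.83 for *APR1* with *APR2*, and 0.81 for *APR1* with *SULTR1;2*. *SDI2* went with these less closely, with r of 0.18 to *APR1*, -0.02 to *APR2* and -0.14 to *SULTR1;2*. Its r was 0.50 to *APR3* and 0.05 to *LSU2*. These correlations are descriptions over 8 libraries, in which the genes of a library share its seedlings and its depth. Tested genes outside the lists were also ranked by Pearson's r to the mean of the standardized levels of the 6. With the 8 libraries and genotype means included, the highest were AT3G06310 (r = 0.98), *UBL5* (0.96), *COG0212* (0.95), *P5CR* (0.94) and *EOL2* (0.94). Such values are the top of a ranking over many genes and few libraries, and no test was made of them.

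The rest of the pathway was read from lists of 42 further genes, of which 32 were tested. By edgeR 0 were called higher and 1 of 32 lower, *ATPS3*, against 1.91% and 2.93% of all tested genes. With no fold threshold 0 were higher and 3 of 32 lower, *ATPS3*, *ATPS4* and *SAL1*, against 4.59% and 6.34%, so that the counts of the lists were near the background. The lists covered other sulfate transporters (6 of 10 tested), activation and reduction (5 of 5), the branch to phosphoadenosine phosphosulfate or PAPS (6 of 8), cysteine and glutathione (9 of 10), other sulfur deficiency genes (2 of 5) and regulators (4 of 4).

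ATP sulfurylase makes the APS on which the reductases act, and 2 of its 4 genes were lower in *ubp5*. *ATPS3* was at 25.9, 24.8, 37.3 and 21.2 CPM in Col-0 and at 8.60, 13.2, 11.9 and 13.5 CPM in *ubp5*. Every mutant library was below every Col-0 library, as for 9.34% of all tested genes. *ATPS3* fell by 1.19 on the log2 scale (SE 0.21; adjusted p = 0.00383, edgeR), and it remained past both thresholds with each library left out in turn, at -1.30 to -1.01. *ATPS4* was at 106, 98.6, 85.4 and 98.7 CPM in Col-0 and at 49.1, 62.4, 62.8 and 63.7 CPM in *ubp5*, again without overlap. It fell by 0.71 on the log2 scale (SE 0.12; adjusted p = 0.00262, edgeR), short of the fold threshold.

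The other 2 genes with a miR395 site did not pass the test. *ATPS1*, whose site has the same letters as that of *ATPS3*, had means of 325 ± 42.3 and 282 ± 30.2 CPM in the wild type and the mutant, a log2 fold change of -0.20 (adjusted p = 0.319, edgeR). *SULTR2;1*, a transporter of the vascular tissue, was at 34.2 ± 6.65 and 39.2 ± 6.14 CPM, a log2 fold change of 0.18 (adjusted p = 0.539). *ATPS2*, with no site found, was at 37.9 ± 1.63 and 38.2 ± 2.78 CPM, a log2 fold change of 0.01 (adjusted p = 0.983). *SIR*, the single sulfite reductase that follows APS reductase, was at 214 ± 36.4 and 210 ± 27.9 CPM (log2 fold change -0.03; adjusted p = 0.929). The 4 *ATPS* genes thus ran from -1.19 to 0.01, and the differences between them were not tested.

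**Figure D3:**
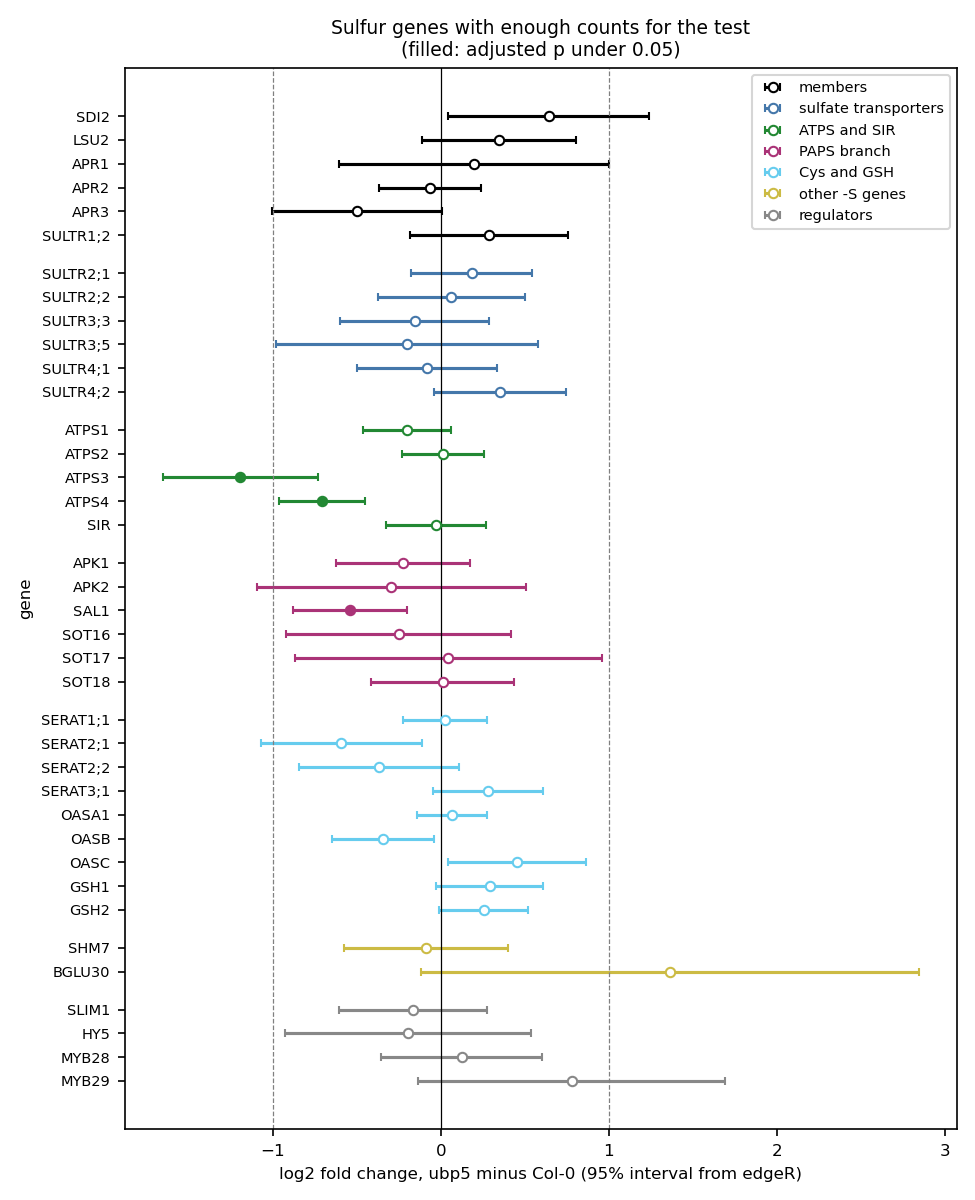
Log2 fold change of *ubp5* over Col-0 (horizontal axis) with the 95% interval from edgeR for the 6 tested genes (black) and the 32 tested genes of the pathway lists (colours by list), 4 libraries in each genotype. Filled points have an adjusted p under 0.05, which are *ATPS3*, *ATPS4* and *SAL1*, and dashed lines mark a log2 fold change of 1 in size.

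In the PAPS branch, *APK1* and *APK2*, kinases that turn APS into PAPS for glucosinolate sulfation, had log2 fold changes of -0.23 and -0.30 (adjusted p = 0.482 and 0.671, edgeR). *SAL1*, a phosphatase that removes the by-product of PAPS use, was at 33.0, 27.1, 23.1 and 26.2 CPM in Col-0 and at 16.7, 20.8, 17.4 and 19.7 CPM in *ubp5*. It fell by 0.54 on the log2 scale (adjusted p = 0.0443, edgeR), with no overlap, but DESeq2 gave an adjusted p of 0.147 and leaving out single libraries gave 0.0347 to 0.114. *APK4*, a kinase of the same family, was too low for the main test at 16, 7, 4 and 18 counts in Col-0 and 1, 0, 2 and 3 in *ubp5*. Without the filter it was called lower (log2 fold change -2.41; adjusted p = 0.0263, edgeR), and it was chosen for mention after its values were seen.

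Vacuolar sulfate export by SULTR4;1 and SULTR4;2 is another part of the deficiency response. *SULTR4;1* had a log2 fold change of -0.08 (adjusted p = 0.831, edgeR) and *SULTR4;2* one of 0.35 (adjusted p = 0.250). *GSH1*, for the first enzyme of glutathione synthesis, was at 0.29 (adjusted p = 0.244), and at 0.44 with an adjusted p of 0.0303 without Col-0 replicate 1. *SHM7* and *GGCT2;1* rise with the *SDI* and *LSU* genes under deficiency. *SHM7* had means of 34.1 ± 8.75 and 31.9 ± 9.11 CPM in the wild type and the mutant (log2 fold change -0.09; adjusted p = 0.847), and *GGCT2;1* had 4, 7, 5 and 2 counts against 7, 3, 2 and 4. Among the regulators, *SLIM1* was at 16.1 ± 1.69 and 14.0 ± 4.07 CPM (log2 fold change -0.16; adjusted p = 0.669). *HY5*, which promotes *APR* expression in light, had a log2 fold change of -0.20 (adjusted p = 0.771), and *MYB28*, the glucosinolate regulator bound by the SDI proteins, one of 0.12 (adjusted p = 0.780). None of the tested genes of this paragraph passed the test over the 8 libraries.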

How the data were processed

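RNA-seq libraries of 4 Col-0 and 4 *ubp5* seedling samples were analysed, grouped by the genotype in the sample labels. After demultiplexing and trimming (BRBseqTools) and mapping to TAIR10 with STAR 2.7.8a, the authors deposited, for each library, raw sense-strand counts of unique molecular identifiers (UMIs) for every Araport11 gene. From these deposited counts edgeR 4.0.16 (R 4.3.3; TMM, filterByExpr with defaults, quasi-likelihood test, no covariate) compared *ubp5* with Col-0 over the whole table, with Benjamini-Hochberg adjustment over 15649 genes. Calls required an adjusted p under 0.05 together with a log2 fold change reaching 1 or -1. The fold change and its F value gave the standard error. CPM values use TMM-scaled totals.

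The 10 genes and the pathway and marker lists were chosen with earlier results of these data known. Named genes are the 10, every list gene past the thresholds, a set of pathway genes and regulators, and the 5 genes most correlated with the mean of the tested genes. *SAL1* and *APK4*, and the genes of the closing section that the report does not name, were named after their values were seen.

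Genes too low for the test were compared by an exact permutation test on log2(CPM + 1) and by summed counts with an exact 95% counting interval, with 3 counts as the floor. In the smallest library 3 counts were 2.09 CPM and in the largest 0.994 CPM. Alternatives were DESeq2 1.42.0, its size factors or total counts in edgeR, no filter, a mean of at least 10 counts, a replicate block, no organelle genes, other thresholds and each library left out. Positions and sequences are from RefSeq TAIR10.1, where 37051 of the 37336 identifiers matched. Protein sequences were not used here. Figures were drawn with Python 3.11.15 and matplotlib 3.10.9.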

Additional observations from a re-analysis of the deposited data

Results flagged for a closer look

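A sample far from the other 3 of its genotype was looked for in each tested sulfur gene (Dixon's ratio, which chance passes in about 1 of 20 groups). It was found in 9 of 76 groups (11.8%), against 6.2% of Col-0 and 5.07% of *ubp5* groups over all tested genes. None of the 9 was in the 6 tested of the 10 genes, and the 4 untested ones were not searched. Of the 9, 6 were Col-0 replicate 1, the library that stood apart from the other Col-0 libraries over all genes. How often it was the flagged library over all tested genes was not counted. That library was high for *SULTR4;1* (55.2 CPM, others 34.1 to 36.9), for *SOT16* and *SOT17*, sulfotransferases of glucosinolate synthesis (166 and 43.2 CPM, others 54.4 to 65.2 and 9.04 to 12.3), and for *SERAT2;1* and *SERAT2;2*, serine acetyltransferases that make the precursor of cysteine (74.7 and 112 CPM, others 37.3 to 39.7 and 55.6 to 60.1). It was low for the transporter gene *SULTR2;2* (10.1 CPM, others 16.4 to 17.3). In *ubp5*, *ATPS4* was low in replicate 1 (49.1 CPM, others 62.4 to 63.7), *HY5* in replicate 3 (1.40 CPM, others 7.08 to 7.95) and *SERAT3;1* in replicate 4 (15.7 CPM, others 19.2 to 19.7). The low *HY5* value rests on 2 counts in the shallowest library, under the floor of 3 counts.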

How the results depend on the processing

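The count of called genes among the 10 was 0 in each direction under every alternative run, and that of the pathway lists was 0 higher throughout. One gene of the lists was lower in most settings, 2 without the filter on low counts and 3 without the fold threshold. Over all genes, 299 higher and 459 lower calls became 184 and 279 at an adjusted p under 0.01, 719 and 992 without the fold threshold, 345 and 478 with DESeq2, and 249 to 465 and 402 to 493 with each library left out. Fold changes that turned sign with a library left out were *APR1* (-0.26 to 0.58), *APR2* (-0.14 to 0.061), *SULTR4;1* (-0.20 to 0.11), *ATPS2* (-0.031 to 0.057), *SIR* (-0.094 to 0.094), *APK2* (-0.54 to 0.30), *SHM7* (-0.25 to 0.082), *HY5* (-0.37 to 0.054) and *MYB28* (-0.025 to 0.29), none of them past the test. Without Col-0 replicate 1 and *ubp5* replicate 2, chosen after seeing the data, *SIR* was 0.03, *APK2* 0.10, *SHM7* -0.38 and *HY5* -0.40. The cause was not tested. With the replicate number as a block, 269 genes were called higher and 396 lower, 0 of the 10 genes in either direction and 1 lower of the lists. Same-numbered libraries did not deviate together (r from -0.12 to 0.03 over 4 pairs). The labels do not say whether the numbers pair the samples, and these correlations cannot decide it. Depth limits *SDI1*, *LSU1*, *BGLU28* and *SULTR1;1*, which had at most 14 counts in a library.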

Other observations

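Of the 10 pathway genes too low for the test, *SULTR3;2*, a sulfate transporter gene named after its values were seen, had 6, 0, 2 and 2 counts in Col-0 and 5, 10, 5 and 7 in *ubp5*. In CPM its *ubp5* values, 2.53 to 3.78, were all above those of Col-0, 0 to 2.25. Such a gap upward was found for 6.32% of the 24406 genes with a count. Its log2 fold change without the filter was 1.76, with an adjusted p of 0.0729 (edgeR). *SULTR3;4*, another low transporter gene, had an estimate of the other sign, -1.34 (adjusted p = 0.144, edgeR without the filter), and its groups overlapped in CPM.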
